A study of Mus musculus with 12 samples.

Results

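Chemokines are small secreted proteins that draw leukocytes along a gradient by binding G protein-coupled receptors. The genes described here are those of 5 CC chemokines, Ccl2, Ccl7, Ccl5, Ccl9 and Ccl20, and of Cx3cl1 (fractalkine), which were selected by name from the 29428 genes of the expression table. All 6 were measured, and all 6 were among the 16127 genes that passed the filter on low values. Ccl2 and Ccl7 recruit monocytes through the receptor Ccr2, Ccl5 recruits T cells and monocytes, Ccl9 binds Ccr1 on myeloid cells, and Ccl20 is the ligand of Ccr6. Cx3cl1 is made as a membrane-bound protein, abundant in neurons of the brain, whose chemokine domain can be shed by proteases and which binds Cx3cr1 on microglia. Transcription of many chemokine genes is raised by NF-kB, which acts downstream of the lipopolysaccharide receptor Tlr4, and by interferon-activated factors such as Irf1.

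The 6 genes were followed in STHdhQ7 and STHdhQ111 cells, immortal mouse striatal lines that are homozygous for huntingtin with 7 or 111 glutamines (labelled STHdhQ7/Q7 and STHdhQ111/Q111). Each line was either left nontreated (Q7-C and Q111-C) or given 100 ng/mL murine IFNγ with 5 μg/mL LPS over 24 h (groups Q7-T and Q111-T), and poly(A) RNA of 3 libraries per group was sequenced, 12 libraries in all. Each genotype was represented by 1 cell line, so that the effect of the glutamine repeat and any other difference between the lines cannot be told apart. The paper calls the libraries of a group biological replicates, and the labels do not say whether they came from separate cultures. The p-values of the main edgeR fit measure the spread between libraries of a group, estimated over all 4 groups together. In RNA from whole cultures, fewer cells that express a gene and less RNA of that gene per cell cannot be told apart.

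The depth ranged from 57505990 to 96417834 estimated counts per library. For 11 of 12 libraries the most similar other library came from their own group. Q7-T replicate 2 was closest to Q7-C replicate 1 and had the lowest scaling factor, 0.764 against 0.906 to 1.10 in the others, so that the log2 fold changes of the 6 genes that use this library are given with and without it. The cell type of these striatal lines was checked against markers. The synaptic genes Snap25 and Syt1 had no more than 0.008 TPM (transcript abundance corrected for length and depth) in the mean of any group, whereas the neuronal cytoskeletal genes Tubb3 and Map2 ranged from 3.91 to 74.6 TPM and from 2.13 to 7.93 TPM in the group means. Tubb3 was called higher with treatment in both lines (edgeR adjusted p = 1.16e-04 in STHdhQ7 and 1.53e-05 in STHdhQ111 cells). Map2 was called lower with treatment in STHdhQ7 cells (log2 fold change -1.80, edgeR adjusted p = 0.00868) and had a log2 fold change of 0.02 in STHdhQ111 cells (edgeR adjusted p = 0.990). The progenitor markers Nes and Sox2 averaged 54.6 and 42.4 TPM in Q7-C, and 7.31 and 4.19 TPM in Q111-C. The mesenchymal markers, such as Vim and the collagens, summed to between 2248 and 5979 TPM per library. Of 9 microglia or macrophage markers, 6 were among the rows of the table and only Cd68 passed the filter, and Ptprc, Itgam, Adgre1 and C1qa averaged between 0 and 0.081 TPM and Csf1r between 0.128 TPM in Q7-T and 0.361 TPM in Q111-T. All 5 endothelial markers were below the filter.

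The names CC and CX3C refer to the spacing of the first cysteines of the mature protein, which separates the 6 genes into 5 with adjacent cysteine codons and 1 with 3 codons between them. The coding stretches around this motif are shown for Ccl2, the most abundant of the 6 in treated STHdhQ111 cells, for Ccl5, which differed most between the lines, and for Cx3cl1, the single CX3C gene. They are printed 5′ to 3′ on the coding strand, read from GENCODE M21 transcripts on GRCm38, with the cysteine codons of the motif in capitals, and each joins exons 1 and 2.
Ccl2: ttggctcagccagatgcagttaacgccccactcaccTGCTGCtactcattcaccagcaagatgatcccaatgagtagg
Ccl5: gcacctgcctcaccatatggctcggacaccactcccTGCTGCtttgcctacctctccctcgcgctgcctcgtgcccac
Cx3cl1: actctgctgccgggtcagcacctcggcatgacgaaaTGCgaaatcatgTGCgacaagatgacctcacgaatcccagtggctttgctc

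On GRCm38, Ccl2 (ENSMUSG00000035385) occupies chr11:82035571-82037453 and Ccl7 (ENSMUSG00000035373) chr11:82045712-82047525, both on the plus strand with 8.26 kb between them. Ccl5 (ENSMUSG00000035042) occupies chr11:83525778-83530518 and Ccl9 (ENSMUSG00000019122) chr11:83572919-83578636, both on the minus strand with 42.4 kb between them. Ccl20 (ENSMUSG00000026166) lies at chr1:83116766-83119167 and Cx3cl1 (ENSMUSG00000031778) at chr8:94772009-94782427, both on the plus strand. Ccl2 overlaps Gm17268 on the opposite strand, and the other 5 genes overlap no annotated gene in GENCODE M21.

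To ask which chemokines responded to the inflammatory stimulus, treated and nontreated cells of the same line were compared. A gene was called when the Benjamini-Hochberg adjusted p of the edgeR quasi-likelihood test was under 0.05 and the change was at least 2-fold. Ccl2, Ccl7 and Ccl5 were upregulated in both lines, and Cx3cl1 was upregulated in Q111-T vs. Q111-C. In Q7-T vs. Q7-C, 4 of 6 genes were called higher, with 2.93% of all genes tested called higher. In Q111-T vs. Q111-C, 5 of 6 were called higher, with 8.28% of all genes tested called higher. These counts include Ccl20, which reached the filter minimum of 0.5 TPM in treated libraries only. Without it, 3 of 5 and 4 of 5 genes were called higher, and the median log2 fold changes were 3.43 and 3.73. With it, the median of the 6 genes was 3.74 in STHdhQ7 and 4.27 in STHdhQ111 cells, beside 0.00 and -0.00 over all genes tested. The levels per library are shown in TPM, a scale that allows comparison between genes because it corrects for transcript length.

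**Figure D1:**
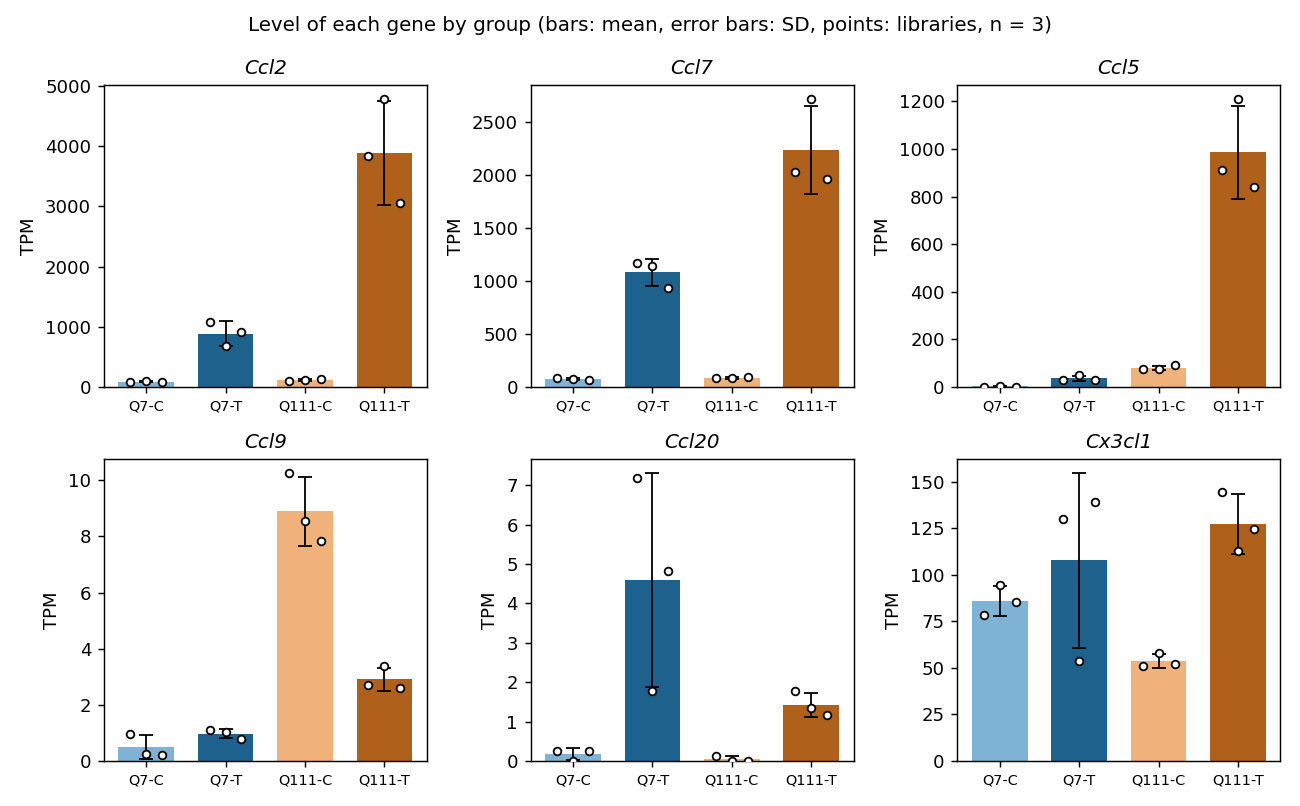
TPM of each gene in the 4 groups, with bars at the mean, error bars of 1 SD and a point for each of the 3 libraries per group; every vertical axis is linear, starts at 0 and has its own range. Ccl2, Ccl7 and Ccl5 were highest in Q111-T, Ccl9 was highest in Q111-C (7.85 to 10.3 TPM), Ccl20 was highest in Q7-T, and 1 of the 3 Q7-T libraries of Cx3cl1 lay at 53.8 TPM, below every Q7-C library.

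Ccl2, encoding the main monocyte attractant of the group, had 89.8, 105 and 80.5 TPM in the 3 Q7-C libraries and 1073, 676 and 918 TPM in the Q7-T libraries. In STHdhQ111 cells it had 106, 116 and 139 TPM without treatment and 3834, 4774 and 3047 TPM with treatment. The treated libraries of each line lay far above the nontreated ones, and the Q111-T libraries lay above all others. The fitted change was 10.8-fold in Q7-T vs. Q7-C (log2 fold change 3.43, SE 0.26, edgeR adjusted p = 5.36e-06) and 35.3-fold in Q111-T vs. Q111-C (log2 fold change 5.14, SE 0.28, edgeR adjusted p = 3.27e-07).

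Ccl7, a monocyte attractant encoded beside Ccl2, had 83.5, 81.0 and 64.6 TPM in Q7-C and 1172, 1141 and 936 TPM in Q7-T. It had 81.4, 83.9 and 95.1 TPM in Q111-C and 2035, 2718 and 1962 TPM in Q111-T. The nontreated libraries of the lines overlapped, and the treated ones did not in TPM. In TMM-scaled counts (CPM) they did, since Q7-T replicate 2 (803) exceeded Q111-T replicates 1 and 3 (732 and 698). The fitted change was 16.4-fold in Q7-T vs. Q7-C (log2 fold change 4.04, SE 0.33, edgeR adjusted p = 1.11e-05) and 28.1-fold in Q111-T vs. Q111-C (log2 fold change 4.81, SE 0.34, edgeR adjusted p = 2.28e-06).

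Ccl5, encoding an attractant of T cells and monocytes, had 1.00, 4.23 and 2.48 TPM in Q7-C, from 38 to 151 estimated counts, and 29.7, 48.9 and 30.4 TPM in Q7-T. In STHdhQ111 cells it had 76.1, 74.8 and 91.7 TPM without treatment and 909, 1208 and 841 TPM with treatment. In TPM, every nontreated STHdhQ111 library exceeded every treated STHdhQ7 library, whereas in TMM-scaled counts (CPM) Q7-T replicate 2 (41.3) exceeded the Q111-C libraries (31.1 to 38.8). The fitted response was 18.3-fold in Q7-T vs. Q7-C (log2 fold change 4.20, SE 0.49, edgeR adjusted p = 2.42e-04; log2 fold change 3.56 without Q7-T replicate 2) and 13.3-fold in Q111-T vs. Q111-C (log2 fold change 3.73, SE 0.47, edgeR adjusted p = 1.83e-04).

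Ccl20, the Ccr6 ligand, was the lowest of the 6 genes in every group but Q7-T, where Ccl9 was lower, and passed the filter only through the treated libraries, so that its calls are a description only. It had 0.251, 0 and 0.256 TPM in Q7-C (14, 0 and 16 estimated counts) and 7.19, 1.77 and 4.82 TPM in Q7-T. In Q111-C it had 0.134, 0 and 0 TPM (6, 0 and 0 estimated counts), and in Q111-T 1.77, 1.34 and 1.16 TPM. Treated and nontreated libraries did not overlap in either line. In Q7-T vs. Q7-C the fitted change was 26.5-fold (log2 fold change 4.73, SE 1.11, edgeR adjusted p = 0.0289). Over 22 alternatives the log2 fold change ranged from 2.13 in limma on log2(TPM + 1), a scale that understates changes of low genes, to 5.32 without Q7-C replicate 1. This call was lost in 7 of 22 alternatives, with an adjusted p of 0.0504 without Q7-C replicate 1, 0.0512 without Q7-C replicate 2, 0.101 without Q7-C replicate 3, 0.0738 without Q7-T replicate 1, 0.0540 without Q7-T replicate 3 and 0.0529 without Q111-T replicate 1. All Q111-C libraries were at or under a floor of 12 estimated counts, the value of 3 read pairs. Against this floor per library, Ccl20 was at least 6.38-fold higher in Q111-T (edgeR adjusted p = 0.0126). The adjusted p was 0.0545 without Q111-C replicate 2 and 0.0520 without Q111-C replicate 3.

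Cx3cl1 had 78.3, 94.4 and 85.4 TPM in Q7-C and 130, 53.8 and 139 TPM in Q7-T. It had 51.2, 57.9 and 52.2 TPM in Q111-C and 145, 113 and 125 TPM in Q111-T. The STHdhQ111 groups were well separated, whereas the STHdhQ7 groups overlapped because of Q7-T replicate 2. The fitted change was 2.54-fold in Q111-T vs. Q111-C (log2 fold change 1.34, SE 0.18, edgeR adjusted p = 2.82e-04). In STHdhQ7 cells the log2 fold change was 0.43 (SE 0.18, edgeR adjusted p = 0.266), and without Q7-T replicate 2 it was 0.61 (edgeR adjusted p = 0.0162), still below the 2-fold threshold.

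Ccl9, a ligand of Ccr1, was called in neither line. It had 0.971, 0.262 and 0.225 TPM in Q7-C (114, 30 and 30 estimated counts) and 1.09, 1.02 and 0.779 TPM in Q7-T. It had 10.3, 8.57 and 7.85 TPM in Q111-C and 2.72, 3.39 and 2.61 TPM in Q111-T. In STHdhQ111 cells all treated libraries lay below all nontreated ones, and in STHdhQ7 cells the groups overlapped through Q7-C replicate 1. In STHdhQ111 cells the log2 fold change was -1.49 (SE 0.57, edgeR adjusted p = 0.101), and 7 of 22 alternatives called it lower. These were DESeq2, the 3 limma fits, edgeR on counts divided by 4 (adjusted p = 0.0493), edgeR on only the groups compared (adjusted p = 0.00121) and edgeR without Q7-C replicate 1 (adjusted p = 0.00580). In STHdhQ7 cells the log2 fold change was 1.07 (SE 0.59, edgeR adjusted p = 0.440), and without Q7-C replicate 1 it was 2.36 with an adjusted p of 0.00423.

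Leaving out Q7-T replicate 2 changed no call among the responses of STHdhQ7 cells. The log2 fold change was then 3.39 for Ccl2, 3.72 for Ccl7, 5.01 for Ccl20 and 0.76 for Ccl9, beside the values for Ccl5 and Cx3cl1 given above.

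**Figure D2:**
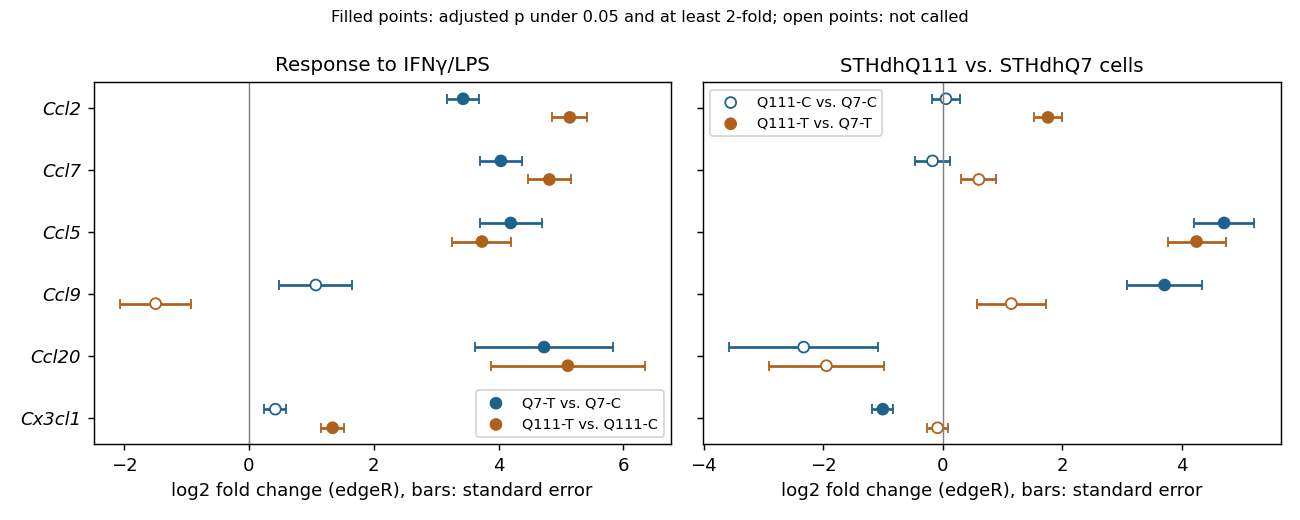
Log2 fold change of each gene from the edgeR fit (horizontal axis; bars show 1 SE), on the left for treated vs. nontreated cells of each line and on the right for STHdhQ111 vs. STHdhQ7 cells without (blue) and with (brown) treatment; filled points were called at an adjusted p under 0.05 and at least 2-fold. The responses of Ccl2 in the lines were 3.43 and 5.14, and Ccl5 lay above 4 on the right in both pairs of groups.

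To ask how the lines differed at baseline, Q111-C was compared with Q7-C, and the same genes were then compared between Q111-T and Q7-T. These comparisons and those of the response share their libraries and are not independent of each other. Ccl5 and Ccl9 were higher and Cx3cl1 was lower in Q111-C, which made 3 of 6 genes called, with 15.2% of all genes tested called in either direction. In Q111-T vs. Q7-T, Ccl5 and Ccl2 were higher, 2 of 6 genes, with 24.5% of all genes tested called in either direction.

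Ccl5 averaged 80.9 ± 9.43 TPM (SD, n = 3) in Q111-C, against 2.57 ± 1.62 TPM (SD, n = 3) in Q7-C. It was 26.2-fold higher in Q111-C (log2 fold change 4.71, SE 0.50, edgeR adjusted p = 4.28e-05). After treatment the Q111-T libraries averaged 986 ± 195 TPM (SD, n = 3), the Q7-T libraries averaged 36.3 ± 10.9 TPM (SD, n = 3), and the difference was 19.0-fold (log2 fold change 4.25, SE 0.48, edgeR adjusted p = 5.27e-05). Without Q7-T replicate 2 the log2 fold change was 4.88. Both calls held under all 22 alternatives. Ccl5 was the only one of the 6 genes called higher in STHdhQ111 cells both with and without treatment.

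Ccl2 started from 91.7 ± 12.2 TPM (SD, n = 3) in nontreated STHdhQ7 cells and from 120 ± 16.8 TPM (SD, n = 3) in nontreated STHdhQ111 cells. The edgeR fit gave a log2 fold change of 0.05 (SE 0.24, adjusted p = 0.908) at baseline, although the TPM values of the groups did not overlap. After treatment Ccl2 reached a mean of 889 TPM in the Q7-T libraries and 3885 ± 864 TPM (SD, n = 3) in Q111-T, a 3.39-fold difference (log2 fold change 1.76, SE 0.24, edgeR adjusted p = 1.97e-04) that held under all 22 alternatives. Treated STHdhQ7 cells had 1083 ± 128 TPM (SD, n = 3) of Ccl7, and treated STHdhQ111 cells 2238 ± 417 TPM (SD, n = 3). Its log2 fold change of 0.61 (SE 0.29) was not called by edgeR (adjusted p = 0.124), whereas on the TPM scale limma gave 1.04 and called it (adjusted p = 4.97e-04). In edgeR the value was 0.94 without Q7-T replicate 2 (adjusted p = 0.0174, below the 2-fold threshold) and 0.35 without Q111-T replicate 2 (adjusted p = 0.378). In limma on log2(TPM + 0.5) the median of all genes itself was shifted towards STHdhQ111 cells, by 0.34 with treatment and by 0.27 without it.

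Ccl9 averaged 8.89 ± 1.24 TPM (SD, n = 3) in Q111-C, against 0.486 ± 0.420 TPM (SD, n = 3) in Q7-C. It was 13.1-fold higher in Q111-C (log2 fold change 3.71, SE 0.63, edgeR adjusted p = 0.00118), a call that held under all 22 alternatives. Without Q7-C replicate 1 the log2 fold change was 5.00. With treatment Ccl9 was still higher in every Q111-T library than in any Q7-T library, but its log2 fold change of 1.15 (SE 0.58) was not called (edgeR adjusted p = 0.137). It was called in 3 of 22 alternatives, namely limma on log2(TPM + 0.5) and on log2(TPM + 0.1) (adjusted p = 0.00448 and 0.0137) and edgeR without Q7-C replicate 1 (adjusted p = 0.0130).

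Cx3cl1 was lower in Q111-C, at 53.8 ± 3.63 TPM (SD, n = 3), than in Q7-C, at 86.0 ± 8.09 TPM (SD, n = 3). The fitted difference was 2.00-fold (log2 fold change -1.003, SE 0.18, edgeR adjusted p = 0.00160) and stood at the edge of the fold threshold, so that 17 of 22 alternatives did not call it. In limma on log2(TPM + 0.5) it was -0.67 with an adjusted p of 0.136. With treatment the lines overlapped, and the log2 fold change was -0.09 (SE 0.18, edgeR adjusted p = 0.725). Ccl20 was listed at or near 0 in both nontreated groups. In the treated groups its log2 fold change was -1.95 (SE 0.96, edgeR adjusted p = 0.130), with libraries that overlapped in TPM but not in CPM. Without Q7-T replicate 2, the log2 fold change between the treated lines was 1.82 for Ccl2, 1.49 for Ccl9, -2.21 for Ccl20 and -0.26 for Cx3cl1, and no call changed.

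Whether the response to IFNγ/LPS itself differed between the lines was tested with the interaction of cell line and treatment. Of the 6 genes, 1 was called, with 4.71% of all genes tested called in either direction. The response of Ccl2 was larger in STHdhQ111 cells by 3.27-fold (log2 difference 1.71, SE 0.33, edgeR adjusted p = 0.0121), and the call held under all 21 alternatives. The log2 difference was 0.78 (SE 0.41, edgeR adjusted p = 0.331) for Ccl7 and -0.46 (SE 0.61, edgeR adjusted p = 0.736) for Ccl5, and these were 1.10 and 0.17 without Q7-T replicate 2. The difference in Ccl5 between the lines was thus present before treatment, and the interaction was not called. For Cx3cl1 the log2 difference was 0.92 (SE 0.25, edgeR adjusted p = 0.0580), and it was 0.73 (adjusted p = 0.0272) without Q7-T replicate 2. It was called in 1 of 21 alternatives, at 1.07 (adjusted p = 0.0398) without Q7-T replicate 3. The log2 difference of Ccl9 was -2.56 (SE 0.82, edgeR adjusted p = 0.0994), and 5 of 21 alternatives called it, with -3.85 (adjusted p = 0.00184) without Q7-C replicate 1. For Ccl20 it was 0.38 (SE 1.35, edgeR adjusted p = 0.918), with the Q111-C libraries at or under the floor. Without Q7-T replicate 2 the log2 difference was 1.75 for Ccl2, -2.25 for Ccl9 and 0.11 for Ccl20.

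In two-sided exact permutation tests of the TPM values, every pair of groups that did not overlap gave p = 0.1, the smallest value that 3 libraries against 3 allow.

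The order of the genes by level changed between the groups. In Q7-C, Ccl2, Cx3cl1 and Ccl7 overlapped at the top, and Ccl5, Ccl9 and Ccl20 were low. In Q7-T, Ccl7 and Ccl2 overlapped and all other neighbours were separate. In Q111-C the order was Ccl2, then Ccl7 and Ccl5, which overlapped, then Cx3cl1, Ccl9 and Ccl20. In Q111-T the order was Ccl2, Ccl7, Ccl5, Cx3cl1, Ccl9 and Ccl20, and no neighbours overlapped. The summed TPM of the 6 genes and of 13 other CC chemokines with a row in the table went from 265 ± 25.5 (SD, n = 3) to 2171 ± 253 (SD, n = 3) with treatment of STHdhQ7 cells, and from 357 ± 31.1 (SD, n = 3) to 7277 ± 1449 (SD, n = 3) with treatment of STHdhQ111 cells. Of these sums, Cx3cl1 made up 32.6% in Q7-C and 4.91% in Q7-T, and 15.2% in Q111-C and 1.81% in Q111-T. Ccl5 made up 0.954% and 1.71% in the STHdhQ7 groups, and 22.6% and 13.6% in the STHdhQ111 groups. The ratio of Ccl2 to Ccl7 was 1.20 ± 0.114 (SD, n = 3) in nontreated and 0.830 ± 0.208 (SD, n = 3) in treated STHdhQ7 cells. In STHdhQ111 cells it was 1.38 ± 0.0787 (SD, n = 3) without and 1.73 ± 0.167 (SD, n = 3) with treatment. In TPM, Ccl2 thus exceeded Ccl7 in every library of 3 groups, and Ccl7 exceeded Ccl2 in every Q7-T library. The order in Q7-T depended on the scale, since in estimated counts Ccl2 exceeded Ccl7 in 2 of 3 Q7-T libraries (39399 against 30286 in replicate 1 and 52911 against 37968 in replicate 3), and their annotated transcripts with the longest coding sequence have 813 and 801 bases.

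**Figure D3:**
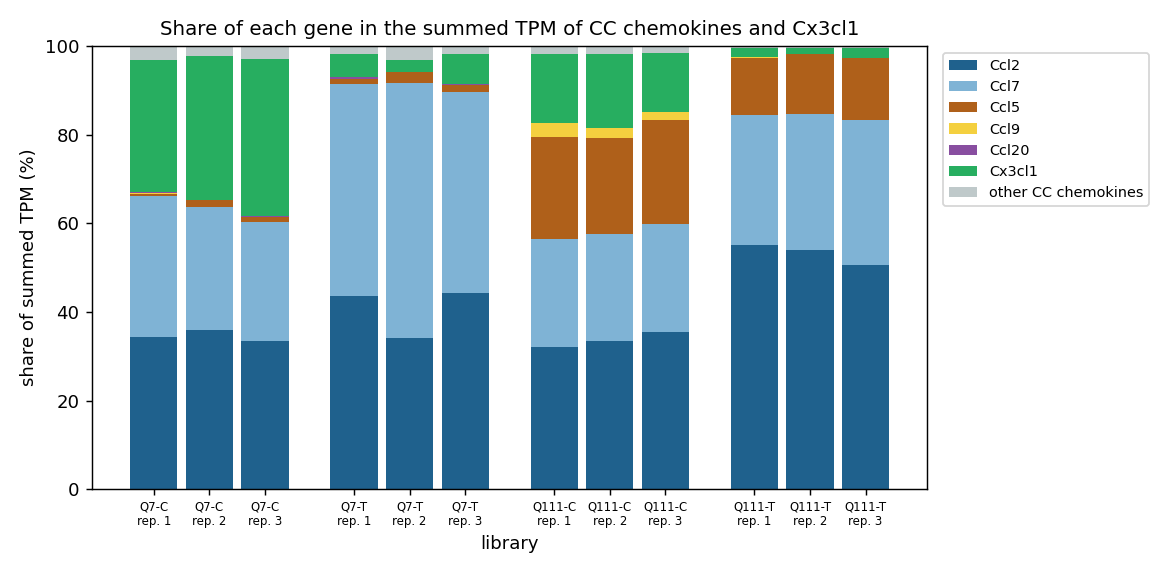
Share (%) of each gene in the summed TPM of the 6 genes and 13 other CC chemokines, 1 bar per library. Cx3cl1 held about as much as Ccl2 in Q7-C (32.6% and 34.5%) and little in Q111-T (1.81%), and Ccl5 held 22.6% in Q111-C and 13.6% in Q111-T.

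Across the 12 libraries, the log2(TPM + 0.5) of Ccl2 and Ccl7 had a Pearson correlation of 0.98, the highest of the 15 pairs among the 6 genes, and Ccl2 and Ccl9 had 0.02. These correlations describe 12 libraries that fall into 4 groups and are given without a test. The genes with the pattern most like Ccl2 were Cxcl11, Ifi204 and Fas (0.99 each). For Ccl7 they were Batf2, Ms4a4d and Lcn2, for Ccl5 Tbrg1, Slpi and Ly6e, and for Cx3cl1 Frmd8 (0.99), Nuak2 and Smim3. For Ccl9 they were Rps3a1, Nudt9 and Angptl4, and for Ccl20 Ido2, Unc93a2 and Olfr56.

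Of a fixed list of 18 other CC chemokines, 6 passed the filter, namely Ccl3, Ccl8 and Ccl12, which share the chromosome 11 clusters, Ccl17 and Ccl25 on chromosome 8, and Ccl27a on chromosome 4. Ccl3, Ccl8 and Ccl12 reached the minimum in enough libraries only through the treated cells, so that their levels are given as a description, with no test. Ccl8, a monocyte attractant 79.6 kb from Ccl2, averaged 0.227 TPM in Q7-C and 37.4 TPM in Q7-T. In STHdhQ111 cells it averaged 0.316 TPM without and 18.4 TPM with treatment. Ccl3, encoding macrophage inflammatory protein, was listed at 0 in every nontreated library and averaged 0.697 TPM in Q7-T and 8.28 TPM in Q111-T. Against the floor per library, Ccl3 was at least 2.02-fold higher in Q7-T than in Q7-C and at least 20.2-fold higher in Q111-T than in Q111-C. Ccl12 averaged 1.83 TPM in Q111-T and between 0 and 0.049 TPM in the other groups. In Q111-T vs. Q7-T, Ccl17, encoded downstream of Cx3cl1 on chromosome 8, was lower (log2 fold change -2.51, SE 0.68, edgeR adjusted p = 0.0129).

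**Figure D4:**
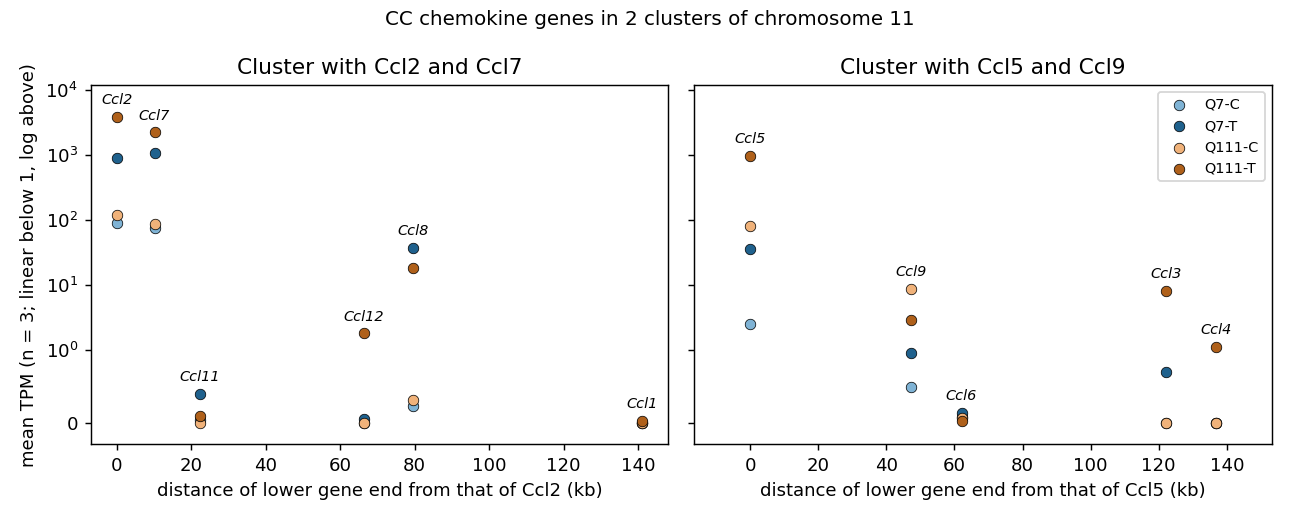
Mean TPM (n = 3; linear below 1 and logarithmic above) of the CC chemokine genes in the clusters of chromosome 11 that hold Ccl2 and Ccl7 (left) and Ccl5 and Ccl9 (right), against the distance in kb from Ccl2 or Ccl5. Ccl2, Ccl7 and Ccl8 were higher in treated than in nontreated cells of both lines, and Ccl9 was highest in Q111-C at 8.89 TPM.

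Of 7 receptors of the 6 chemokines listed, 2 had values in the table used here and 1, Ccr1, passed the filter. Ccr1, the receptor bound by Ccl5, Ccl7 and Ccl9, averaged 0.381 TPM in nontreated and 1.28 TPM in treated STHdhQ111 cells, and 0.013 and 0.036 TPM in STHdhQ7 cells. It passed the filter only through STHdhQ111 libraries, and these levels are a description, with no test. Of 5 receptors listed as atypical or scavenging, a list not limited to receptors of the 6 chemokines, 2 were tested. Ccrl2, which passed the filter only through Q111-T, averaged 23.1 TPM there and between 0.037 and 0.300 TPM in the other groups. Ackr3 was higher in STHdhQ111 cells both without (log2 fold change 3.35, SE 0.37, edgeR adjusted p = 5.77e-05) and with treatment (log2 fold change 3.13, SE 0.37, edgeR adjusted p = 6.84e-05). Of the proteases that shed Cx3cl1, Adam10 and Adam17 were tested, with between 22.1 and 37.0 TPM and between 9.09 and 14.0 TPM in the group means, and were not called by edgeR in the 5 comparisons. Of 5 proteoglycans that bind chemokines at the cell surface, 1 was called lower in each treated line, with 1.11% of all genes tested called lower in Q7-T and 2.96% in Q111-T, namely Gpc1 in Q7-T vs. Q7-C (log2 fold change -1.002, SE 0.13, edgeR adjusted p = 6.24e-04) and Sdc2 in Q111-T vs. Q111-C (log2 fold change -1.60, SE 0.15, edgeR adjusted p = 1.42e-05).

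All 17 genes listed for the signalling upstream of chemokine transcription were tested, and 8 were called in each line after treatment, all higher, beside 2.93% of all genes called higher in STHdhQ7 and 8.28% in STHdhQ111 cells. Irf1 was higher after treatment in both lines, by 4.15 in STHdhQ7 cells and 3.61 in STHdhQ111 cells on the log2 scale. At baseline 6 of 17 were called between the lines, all higher in Q111-C, beside 7.62% of all genes called higher there. With treatment 8 of 17 were called, all higher in Q111-T, beside 13.3% of all genes. Cd14, the LPS co-receptor, was higher in both, by a log2 fold change of 2.04 (SE 0.25, edgeR adjusted p = 1.29e-04) in Q111-C vs. Q7-C and of 2.17 (SE 0.25, edgeR adjusted p = 6.00e-05) in Q111-T vs. Q7-T. Zfp36, whose product promotes decay of chemokine and cytokine mRNAs, had a larger response in STHdhQ111 cells (log2 difference 1.56, SE 0.24, edgeR adjusted p = 0.00327).

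Cd68, the 1 macrophage marker that passed the filter, averaged 7.09 TPM in nontreated and 11.7 TPM in treated STHdhQ7 cells, and 15.2 and 48.8 TPM in STHdhQ111 cells. The summed macrophage list ranged from 5.93 to 8.32 TPM per Q7-C library, from 8.81 to 15.5 TPM per Q7-T library, from 14.4 to 16.8 TPM per Q111-C library and from 40.8 to 58.0 TPM per Q111-T library, and its part in the chemokine levels was not tested. The mesenchymal list moved the other way with treatment, from 5795 to 5979 TPM in Q111-C to between 2248 and 2551 TPM in Q111-T, and from 4178 to 4382 TPM in Q7-C to between 2894 and 3012 TPM in Q7-T.

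Promoter sequences of RefSeq (GRCm38.p6) matched 3 of the 6 genes, and the 250 bases before the start site are shown for Ccl20, which reached the filter minimum in treated libraries only, and for Ccl9, which was called with treatment in neither line. They were searched on both strands for the NF-kB consensus, the AP-1 motif TGANTCA, the GAS motif TTCNNNGAA and the ISRE core GAAANNGAA. The sequences are printed 5′ to 3′ on the strand of the gene, chr1:83116516-83116765 on the plus strand for Ccl20 and chr11:83578637-83578886 on the minus strand for Ccl9, with the matches in capitals.
Ccl20: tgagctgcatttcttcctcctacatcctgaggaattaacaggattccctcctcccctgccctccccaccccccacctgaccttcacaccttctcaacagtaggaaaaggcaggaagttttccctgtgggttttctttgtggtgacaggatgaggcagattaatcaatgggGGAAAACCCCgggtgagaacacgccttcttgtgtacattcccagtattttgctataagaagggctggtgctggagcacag
Ccl9: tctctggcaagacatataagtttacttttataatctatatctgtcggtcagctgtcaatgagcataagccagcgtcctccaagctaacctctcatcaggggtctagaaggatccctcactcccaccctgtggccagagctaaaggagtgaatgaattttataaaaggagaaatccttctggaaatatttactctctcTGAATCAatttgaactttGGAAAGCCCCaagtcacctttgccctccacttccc

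The Ccl20 window held an NF-kB match from -80 to -71 relative to the start site. The Ccl9 window held an NF-kB match from -35 to -26 and an AP-1 match from -53 to -47, although its response was not called. The Cx3cl1 window held no match to the 4 motifs, which says only that these letters are not in it. The windows searched held the 250 bases before the start site and 50 bases from it on, of which only the former are printed. Of 32851 mouse promoter windows with this span, 8.46% held the NF-kB consensus and 7.81% the AP-1 motif. The GAS motif was in 8.30% and the ISRE core in 8.56%. The matches are a description and not evidence of binding.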

How the data were processed

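The authors prepared stranded poly(A) libraries and sequenced them from both ends. Per the paper's methods, the authors trimmed reads with Cutadapt, mapped them with HISAT2 to GRCm38 and estimated expression with StringTie, and the submitters' processing notes also name FastQC, DESeq2 and edgeR. The deposited table holds TPM values and whole-number estimated counts (expected counts) per gene for 12 libraries. Low deposited counts favoured multiples of 4, so that about 4 counts were taken as 1 read pair, and p-values and floors inherit this uncertainty.

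The filter kept 16127 of 29428 genes, those reaching 0.5 TPM in 3 or more libraries. The deposited counts were scaled by TMM and tested with the edgeR 4.0.16 quasi-likelihood test (R 4.3.3) in 1 fit of all 12 libraries, with Benjamini-Hochberg adjustment over all genes tested. The procedure was tested on simulated data. TPM was compared with exact permutation tests. Alternatives were RLE scaling, DESeq2 1.42.0, no filter or a minimum of 1 TPM, limma 3.58.1 on log2(TPM + 0.5, 0.1 or 1), counts divided by 4, only the groups compared, a replicate block and leaving out each library. The 6 genes and the lists were chosen with earlier results of these data known. All 6 genes were named, with the 3 genes most like each by Pearson correlation. From a list, up to 3 called genes per comparison were named, the 2 highest and the lowest by log2 fold change. Adam10, Adam17 and single marker genes were named after their values were seen. Results for some items of the lists are not reported here.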

Additional observations from a re-analysis of the deposited data

Results flagged for a closer look

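The response of Ccl2 to IFNγ/LPS differed between the cell lines in the test of the interaction itself, with a log2 difference of 1.71 (SE 0.33, edgeR adjusted p = 0.0121) in the direction of a larger response in STHdhQ111 cells. All 3 Q111-T libraries exceeded all 3 Q7-T libraries. The adjusted p ranged from 5.91e-05 to 0.0456 over 21 alternatives.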

How the results depend on the processing

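Of the 30 log2 fold changes of the 6 genes, 14 kept their direction and their side of the threshold under every alternative run. In limma on log2(TPM + 0.5), log2(TPM + 0.1) and log2(TPM + 1), 5, 4 and 4 of 6 genes were called in Q111-T vs. Q7-T instead of 2. For the interaction, 2 genes were called instead of 1 with DESeq2 and in each of the 3 limma fits, and 1 to 2 when a library was left out. Directions that reversed belonged to results that were not called. Ccl7 in Q111-C vs. Q7-C was 0.19, 0.19 and 0.19 in the limma fits in the same order, and -0.320 to 0.0835 over the fits without 1 library. Cx3cl1 in Q111-T vs. Q7-T was 0.35, 0.35 and 0.35 in the limma fits, and -0.261 to 0.0657 without 1 library. The interaction of Ccl20 was -0.97, -0.63 and -0.92 in the limma fits, -0.0268 with counts divided by 4, and -0.25 to 4.41 without 1 library. The interaction of Ccl5 was 0.12 in limma on log2(TPM + 1), and -0.97 to 0.17 without 1 library. Ccl2 in Q111-C vs. Q7-C was -0.0718 to 0.207 without 1 library. The cause of these changes was not tested. Ccl20 in Q7-T vs. Q7-C also lost its call when only these groups were fitted (adjusted p = 0.0817). Ccl20 was called lower in Q111-T vs. Q7-T in 4 alternatives, and in Q111-C vs. Q7-C without Q111-C replicate 1, where no Q111-C count was left.

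The labels do not say whether the replicate numbers pair the libraries. The correlation of same-numbered libraries, as deviations from their group means, was not above 0.1 in every pair of any comparison. In Q7-T vs. Q7-C it was -0.58 for replicate 1 and 0.45 for replicate 3. With 3 libraries per group these values cannot exclude a pairing. Under the replicate block, the log2 fold change of Cx3cl1 in Q111-C vs. Q7-C was -0.997 and thus just under the threshold, and the counts of genes called over the whole table were 570 and 1693 for the response of STHdhQ7 and STHdhQ111 cells, 2315 and 3774 for the lines without and with treatment, and 626 for the interaction. Rescaling moved 8 of the 24 mean TPM values of a gene in a group by more than 1 SD. No other alternative did so, but leaving out 1 of 3 libraries cannot move a mean that far. Depth limited Ccl20, with at most 16 estimated counts in any nontreated library, and Ccl9 in Q7-C.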
